A study of Homo sapiens with 16 samples.

Results

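The BCL2 family is described here by 10 of its genes, BCL2, BCL2L1, MCL1, BCL2L11, BID, BAD, BAK1, PMAIP1, BMF and BIK, chosen by name from 19974 protein-coding genes. Open chromatin was taken as every peak that overlapped the gene's hg38 span extended by 10 kb on each side. Peaks of all lists that overlapped by at least 1 bp were merged into regions, and the 10 genes held 76 of the 183659 regions in the series, from 250 peaks. The data are NicE-seq profiles of U87, an established human glioblastoma line. NicE-seq nicks accessible DNA with the enzyme Nt.CviPII, fills it with biotinylated nucleotides and sequences the captured fragments, and the comparison of interest is accessibility with and without each drug. The 16 libraries form 4 groups of 4, labelled Control_DMSO (called vehicle here), Control_Bel (belinostat), Asi_DMSO (AsiDNA) and Asi_Bel (the combination). AsiDNA is a short double-stranded DNA that imitates a broken end, and belinostat inhibits histone deacetylases and was given at 1 µM for 24 h. All groups were fixed with formaldehyde before labelling. The culture protocol speaks of MTU87 and LTAU87 cells, names that the sample fields do not use, and no AsiDNA dose or duration is in the labels used here. The exposure behind the AsiDNA label is therefore unknown. Each group has 1 deposited peak list for its 4 libraries, so there is no replicate error to set a difference against, no test was made and every difference below is a difference between lists.

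Proteins of this family decide whether mitochondria are breached in the intrinsic pathway of apoptosis. BCL2, BCL-xL (the main product of BCL2L1) and MCL1 guard the outer mitochondrial membrane. BAK1 and its relative BAX form the pores that release cytochrome c. The BH3-only proteins BIM (BCL2L11), BID, BAD, NOXA (PMAIP1), BMF and BIK bind the guards, and some also activate the pore formers directly. Inhibitors of histone deacetylases are known to raise BIM, BMF and NOXA transcripts in several cell types. Glioblastoma cells often depend on BCL-xL and MCL1 for survival. A peak marks accessible DNA and not transcript level, and a peak present in a share of the cells cannot be told apart from a weaker peak in all of them.

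The lists were of similar length, with 130318 to 138937 peaks on chromosomes 1 to 22 and X, and median widths of 398 to 410 bp. Read depth is unknown. Of 6 genes marking glioma or mesenchymal cells, VIM, NES, SOX2, CD44 and S100B had a gene-end peak in every list, while GFAP had none. Of 4 genes marking other cell types, PTPRC, EPCAM and PECAM1 had none and CD3E had 1 in every list. CDKN2A and CDKN2B, known to be deleted in U87, had no gene-end peak in any list.

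Most open chromatin at the family's genes was found in every group. Of the 76 regions, 47 (61.8%, Wilson 95% interval 50.6 to 71.9, counting error only) were held by all lists (called constant below), against 51.4% of all regions and 54.5% of the regions within 10 kb of a protein-coding gene. The other 29 were held by 1 list (10 regions), 2 lists (14) or 3 lists (5). Regions within 1000 bp of a gene end were in all lists in 15 of 17 cases (88.2%, interval 65.7 to 96.7). Counted by gene end, 14 of the 16 ends with a peak in any list had one in all lists (87.5%, interval 64.0 to 96.5), against 82.3% of 17633 such ends of protein-coding genes. Inside the genes 18 of 35 were in all lists (51.4%), and outside them 14 of 24 (58.3%). The number of regions per 10 kb of extended span ran from 0.415 at BCL2, the longest gene at 197 kb, to 3.29 at PMAIP1, which is 4.31 kb long. MCL1 had all its 4 regions in every list, whereas BIK had none of its 3 in every list. By role, 18 of the 27 regions at the guards, 4 of 5 at the pore former and 25 of 44 at the BH3-only genes were in every list. The map of regions along each gene shows that 32 of the 47 regions in every list lay inside or outside the genes rather than at their ends, and that of the 29 others only 1 at BMF and 1 at BIK lay at an end.

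**Figure D1:**
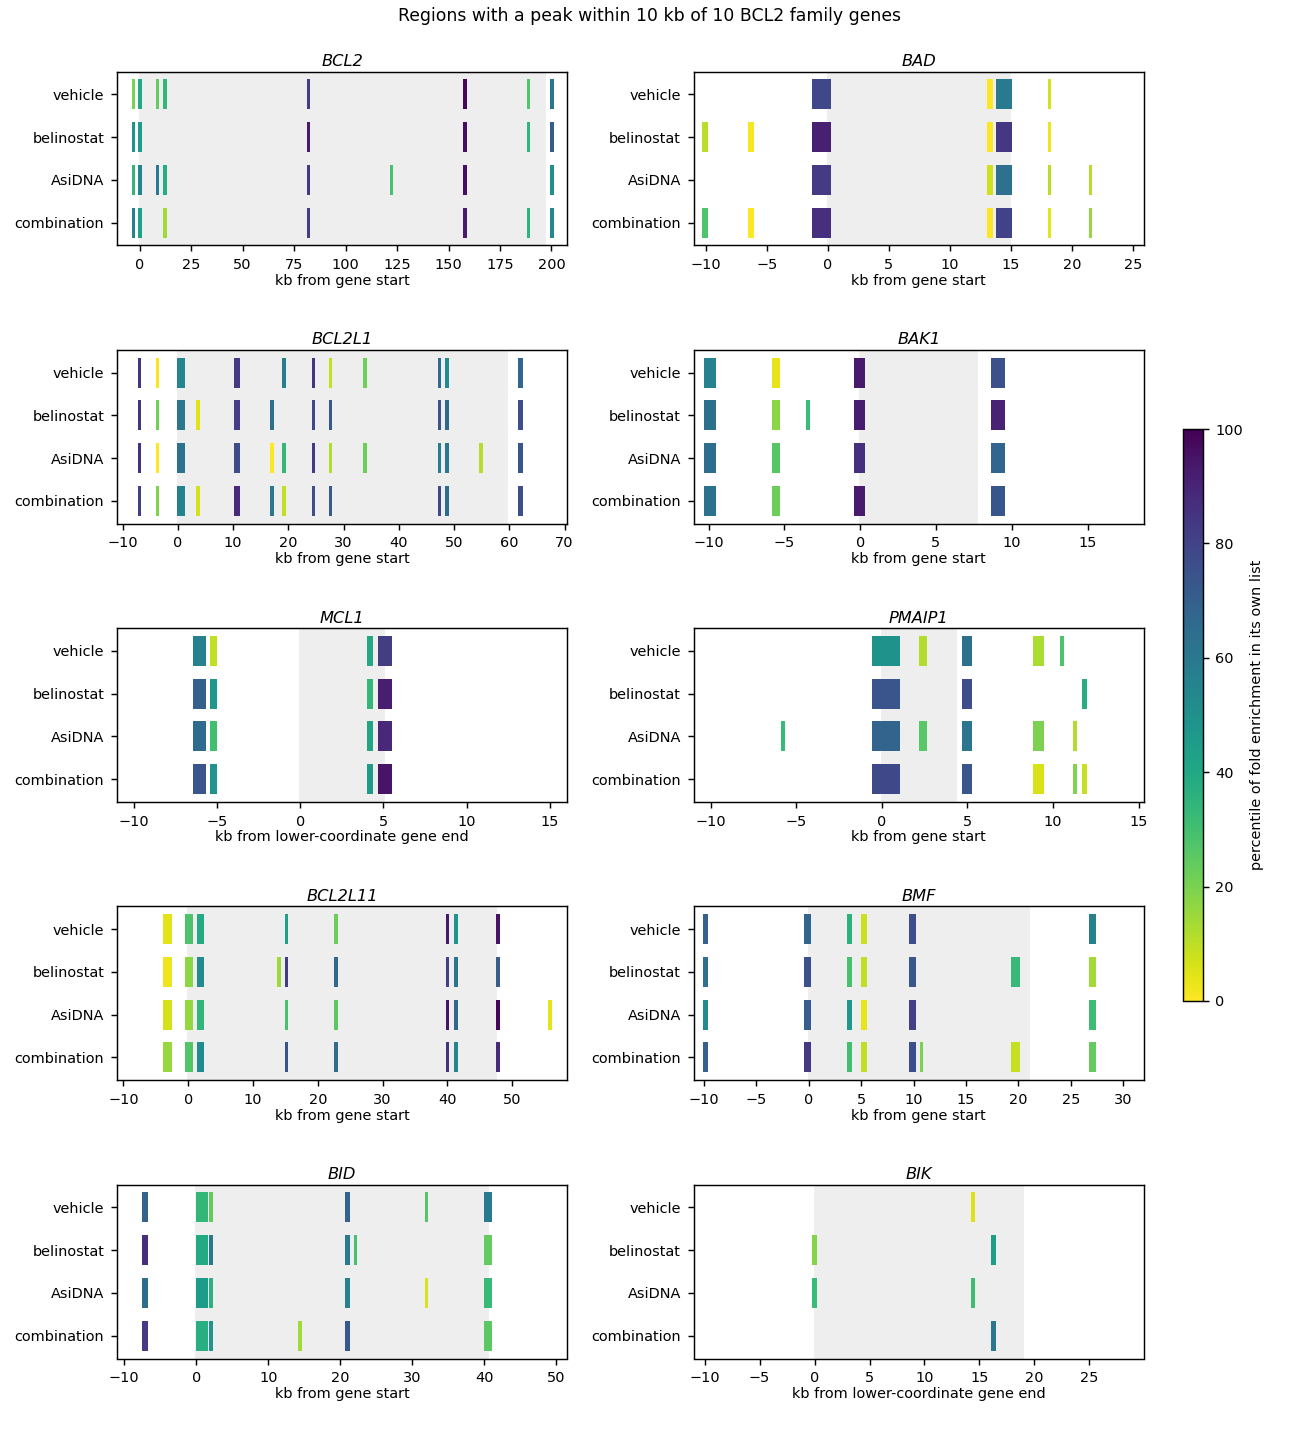
Regions with a peak in the vehicle, belinostat, AsiDNA and combination lists (rows) within 10 kb of each gene, plotted by distance in kb from the gene start, or from the lower-coordinate end for MCL1 and BIK. Grey marks the gene span and the colour of a bar is the percentile of the region's highest fold enrichment within its own list. The bars span the merged region and very narrow ones are widened to be visible. Constant columns stand at the start of 8 genes, and the 3 BIK regions are each missing from at least 1 list.

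A peak lay near the start of every member with a known strand in each list, though at BID not at the same starts (described with that gene). Strand was at hand for 8 members through RefSeq promoters, and all 8 had a peak within 1000 bp of the start in every list, against 62.5% of 15813 protein-coding genes with a strand. With a window of 500 bp, 7 of the 8 did, and BID had a peak near its start in the AsiDNA and combination lists only. At the other end, 5 of the 8 had a peak in every list (BCL2L11, BID, BAD, BAK1 and PMAIP1), against 12.6% of genes. The BAD end region also overlaps the gene GPR137. At 500 bp BAK1 had none, and no background was counted for that window. Of 18 other mitochondrial-pathway genes with a known strand, 14 had a start peak and 2 an end peak in every list. BMF had an end peak only in the belinostat and combination lists, and at 500 bp in none (8.80% of genes had an end peak in some but not all lists), and BCL2 and BCL2L1 had none. MCL1 was open in every list at its upper-coordinate end. BIK was open at its lower-coordinate end in the belinostat and AsiDNA lists and in neither other list. Taking either end, 9 of 10 members were open in all lists, against 64.1% of 19974 genes.

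Adding belinostat was associated with regions present in 1 list of a pair at about the rate seen over the genome. Against vehicle, the belinostat list had 11 regions that vehicle lacked, of 68 held by either (16.2%, interval 9.28 to 26.7), and the background over all regions was 20.4%. It lacked 9 vehicle regions (13.2%, interval 7.12 to 23.3), against 15.0% of all regions. On the AsiDNA background, the combination gained 9 of 72 regions (12.5%, interval 6.72 to 22.1), against 15.2%, and lost 10 (13.9%, interval 7.72 to 23.7), against 17.6%. These comparisons share no list. In either direction, 20 of 68 (29.4%, interval 19.9 to 41.1) and 19 of 72 (26.4%, interval 17.6 to 37.6) regions were held by 1 list of the pair, against 35.4% and 32.8% of all regions. Over regions within 10 kb of a protein-coding gene, these backgrounds were 33.0% and 30.7%. Regions held by both belinostat lists and neither other list numbered 6 of 76 (7.89%, interval 3.67 to 16.2), against 6.09% of all regions. Those held by both lists without belinostat and neither belinostat list numbered 5 (6.58%, interval 2.84 to 14.5), against 5.04%, so 11 (14.5%, interval 8.28 to 24.1) followed belinostat on both backgrounds, against 11.1%. Each of these background shares lies inside the counting interval of the family's share.

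AsiDNA over vehicle gave 8 gained of 65 regions (12.3%, interval 6.37 to 22.5), against 15.8% of all regions, and 2 lost (3.08%, interval 0.848 to 10.5), against 10.2%. The combination over belinostat gave 7 gained of 66 (10.6%, interval 5.23 to 20.3), against 10.8%, and 4 lost (6.06%, interval 2.38 to 14.6), against 13.5%. Over vehicle the combination gained 11 of 68 (16.2%, interval 9.28 to 26.7), against 18.1%, and lost 6 (8.82%, interval 4.11 to 17.9), against 15.2%. The comparisons over vehicle share the vehicle list. Either way, 10 of 65 regions (15.4%, interval 8.58 to 26.1) differed between AsiDNA and vehicle, against 26.0%, 11 of 66 (16.7%, interval 9.57 to 27.4) between combination and belinostat, against 24.3%, and 17 of 68 (25.0%, interval 16.2 to 36.4) between combination and vehicle, against 33.2%. All 3 family shares were below the background and all 3 backgrounds lay inside the intervals. Over regions within 10 kb of a protein-coding gene, the backgrounds were nearer, at 23.5%, 21.8% and 31.0% in the same order. Both AsiDNA lists and neither other list held 2 regions (2.63%), against 1.23% of all regions, and none was held by both lists without AsiDNA alone, against 0.890% (2.12% in either direction). Both single-drug lists and neither other list held 1 region, at BIK (1.32%), against 1.39%, and the reverse split held none, against 0.737% (2.13% in either direction).

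**Figure D2:**
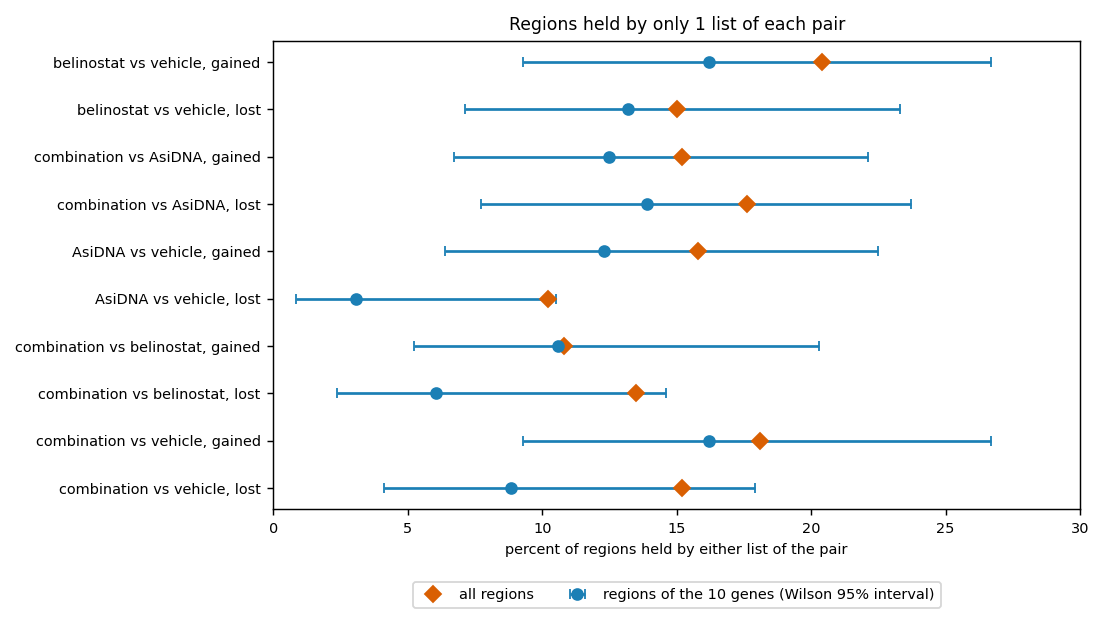
Percent of regions held by only 1 list of each pair, among regions held by either list. Circles are the 10 genes with Wilson 95% intervals for counting error, and diamonds are all regions of the series. All 10 diamonds lie inside the intervals, and AsiDNA against vehicle, lost (3.08% and 10.2%), comes nearest to the edge.

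Among the guards, BCL2L1 had the most regions, 14 in all and 9 in every list. The start region, chr20:31722662-31724149, was 1382 to 1488 bp wide in the lists and stood at percentile 54.2 in vehicle, 60.5 in belinostat, 62.4 in AsiDNA and 56.6 in the combination. A percentile here is the position of the region's highest deposited fold enrichment within its own list, not a level, and the lists differ in length. The start thus held a middle rank in every list. Inside the gene, 27.7 kb from the start, chr20:31696028-31696595 stood at percentile 8.62 in vehicle, 72.7 in belinostat, 11.6 in AsiDNA and 71.6 in the combination. The authors' fold enrichments for these peaks, which are not scaled between lists, were 3.24, 8.93, 3.44 and 9.10 in that order. Both lists with belinostat ranked this region at least 60.1 points above both lists without it, the widest such gap among the 47 constant regions of the family. A gap at least as wide was found at 35 of 94332 regions held by all lists (0.0371%). The region was singled out because its gap was the widest of the 47, so this share is a description and not a test. The region also lies in BCL2L1-AS1, an antisense RNA gene, and was 374, 555, 275 and 520 bp wide.

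Other BCL2L1 regions were ordered alike or the other way around. Of all constant regions, 35.1% ranked higher in both belinostat lists than in both others, and 26.9% ranked lower. These shares are the background for every such order of rank named below. At 17.1 kb from the start, chr20:31706622-31707157 was absent from vehicle, at percentile 63.4 with belinostat, 0.390 with AsiDNA and 60.2 with the combination. At 19.2 kb, chr20:31704476-31704985 stood at 57.1 in vehicle, was absent with belinostat, and stood at 33.5 with AsiDNA and 9.12 with the combination. These neighbours thus had opposite orders across the lists. A weak region at 33.9 kb, chr20:31689926-31690279, was held by vehicle (21.5) and AsiDNA (22.1) only. Another, chr20:31720198-31720408, was held by belinostat (4.66) and the combination (6.61) only. Between them, chr20:31699118-31699710 was constant at 85.1, 78.1, 83.1 and 77.2, lower in both belinostat lists. Also constant was chr20:31730575-31731249, 6.95 kb upstream of the start, at 84.6, 85.5, 86.3 and 81.4. These were the high ranks of the locus together with chr20:31712628-31713824 (83.5, 82.0, 77.0 and 88.1). A weak upstream region, chr20:31727388-31727971, stood at 1.15, 21.8, 0.605 and 18.9, at least 17.7 points higher in both belinostat lists. Further inside, chr20:31674877-31675688 (52.3, 66.1, 60.5 and 64.8) and chr20:31676258-31676850 (66.0, 74.8, 58.0 and 78.3) were also higher in both. A region held by AsiDNA alone lay 54.9 kb from the start (percentile 11.3), and 1 past the gene's end stood at 66.9, 76.4, 73.9 and 75.8.

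BCL2, the founding member and a guard, had 9 regions, 5 of them in every list. Its strongest lay 158 kb into the gene at chr18:63161591-63162391, at percentile 98.2, 96.3, 96.8 and 93.3 in vehicle, belinostat, AsiDNA and combination. Both belinostat lists ranked it below both others, by a gap of 0.484 points. The start region, chr18:63319125-63320614, ranked lower at 39.5, 45.2, 55.2 and 43.0. It covered 1239 bp in vehicle, 975 bp with belinostat, 1200 bp with AsiDNA and 782 bp with the combination, so both belinostat lists were narrower. Near the start, chr18:63311359-63311757 was held by vehicle (23.9) and AsiDNA (59.0) and by neither belinostat list. Further in, chr18:63307523-63308132 was missing from belinostat and stood at 34.2, 38.2 and 14.1 in vehicle, AsiDNA and combination. A region 189 kb from the start was missing from AsiDNA (26.8, 34.7 and 35.3 in the others), and 1 at 122 kb was held by AsiDNA alone (29.0). Upstream of the start by 3.01 kb, chr18:63322849-63323348 stood at 20.5, 48.3, 33.7 and 56.0 and covered 210, 500, 299 and 365 bp, so both belinostat lists ranked it above the others. Also in every list were chr18:63237507-63238647, 82.0 kb into the gene (82.2, 92.8, 83.0 and 82.3), and a region past the end (60.7, 71.3, 50.3 and 54.0), neither of which was ordered by belinostat.

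MCL1 encodes a short-lived guard. The region over its upper-coordinate end, chr1:150579208-150580101, ranked high in every list, at 82.4 in vehicle, 91.7 with belinostat, 88.7 with AsiDNA and 94.6 with the combination. Next to it, chr1:150578588-150578909 stood at 40.2, 33.8, 41.4 and 45.8. Past the other end of the gene, within the RNA gene ADAMTSL4-AS1, chr1:150568132-150568874 stood at 56.3, 69.7, 65.5 and 74.2. Its neighbour chr1:150569161-150569592 stood at 9.21, 47.0, 30.1 and 48.5. All but the second of these 4 regions ranked higher in both belinostat lists than in either other list, by gaps of 2.99 to 17.0 points. That order was met by 35.1% of all constant regions, and with so few regions no difference from that share can be read.

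BAK1 is the only pore former among the 10. Its start region, chr6:33579951-33580693, was at 93.3, 92.4, 86.2 and 92.8 and 648 to 722 bp wide, a high rank in every list. The region just past the gene's end, chr6:33570755-33571621, stood at 75.6 in vehicle, 90.5 with belinostat, 67.7 with AsiDNA and 73.3 with the combination. Upstream, chr6:33583591-33583850 in the pseudogene GGNBP1 was held by belinostat alone (32.0). Also in GGNBP1, chr6:33585583-33586069 was in every list at 3.89, 17.3, 26.5 and 22.4, lowest in vehicle. A region 9.91 kb upstream stood at 56.2, 63.5, 64.6 and 62.2 and covered 806, 585, 457 and 719 bp, so that the lists ranked it alike and differed in width.

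Among the BH3-only genes, BCL2L11 had 10 regions, 8 of them in every list. Its start region, chr2:111120466-111121654, ranked low at 27.9, 17.4, 16.1 and 27.0, and covered 490 bp in vehicle, 618 with belinostat, 1081 with AsiDNA and 555 with the combination. The AsiDNA list was thus the widest there. At 15.2 kb into the gene, chr2:111135789-111136386 stood at 44.0 in vehicle, 82.2 with belinostat, 29.0 with AsiDNA and 73.5 with the combination. At 22.8 kb, chr2:111143523-111143911 stood at 22.6, 67.4, 25.1 and 65.0. Both regions ranked higher in each belinostat list than in each other list, by at least 29.5 and 39.8 points. Gaps at least as wide were found at 1.85% and 0.543% of all constant regions. These were the next widest gaps of the family, so the shares are a description and not a test. The end of the gene was ordered the other way: chr2:111168472-111169094 stood at 95.1 in vehicle, 70.8 with belinostat, 98.7 with AsiDNA and 88.2 with the combination. A high-ranking region 40.1 kb into the gene, chr2:111160726-111161206, followed the same order at 93.4, 80.9, 94.6 and 85.2. Close to the start, chr2:111122253-111123400 stood at 39.4, 52.7, 34.7 and 52.3, higher in both belinostat lists, while chr2:111161885-111162529 (48.3, 60.8, 67.2 and 55.0) was not ordered by either drug. Upstream, a region inside the neighbouring gene ACOXL was weak in every list (2.41 to 15.3). Single-list regions were weak, at 14.0 kb in belinostat (14.6) and past the end in AsiDNA (3.99).

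BID, whose product is cut by caspase-8 and links death receptors to mitochondria, had the widest region at a gene start, chr22:17772967-17774702, 1736 bp after merging. It covered 771 bp in vehicle, 862 with belinostat, 1277 with AsiDNA and 1241 with the combination, at percentiles 33.6, 39.2, 45.1 and 37.2. RefSeq gives 5 starts for BID in this region. The 3 upstream promoter windows (250 bp before to 50 after the start) were overlapped by a peak in both AsiDNA lists and in neither other list, a state found at 0.321% of 22132 protein-coding promoter windows. These windows overlap each other and so count as 1 place. For the window of the start at 17774469, AsiDNA peaks covered 283 of 300 bases and combination peaks 227. The combination's peak there was a separate 227 bp call at percentile 1.65 with a deposited −log10 q of 3.73, under the stricter limit of 5 used below. For the window of the start at 17773983, further into the gene, peaks covered 141 bases in vehicle, 150 with belinostat, 300 with AsiDNA and 47 with the combination. For the other downstream start, at 17774042, they covered 82, 91, 300 and 0 bases in that order. That window thus had a peak in every list but the combination. The windows of the starts at 17774469 and 17773983 are printed here because the lists differ between them. They are RefSeq promoters on GRCh38.p14, minus strand, with GC boxes (GGGCGG on either strand) in capitals.
BID, start 17774469, chr22:17774420-17774719: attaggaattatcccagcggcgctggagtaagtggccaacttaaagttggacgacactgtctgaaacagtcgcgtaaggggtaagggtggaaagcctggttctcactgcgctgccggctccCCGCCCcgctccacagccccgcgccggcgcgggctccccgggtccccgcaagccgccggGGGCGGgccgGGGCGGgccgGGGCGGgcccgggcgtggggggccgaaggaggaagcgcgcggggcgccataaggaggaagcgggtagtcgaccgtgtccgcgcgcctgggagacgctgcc
BID, start 17773983, chr22:17773934-17774233: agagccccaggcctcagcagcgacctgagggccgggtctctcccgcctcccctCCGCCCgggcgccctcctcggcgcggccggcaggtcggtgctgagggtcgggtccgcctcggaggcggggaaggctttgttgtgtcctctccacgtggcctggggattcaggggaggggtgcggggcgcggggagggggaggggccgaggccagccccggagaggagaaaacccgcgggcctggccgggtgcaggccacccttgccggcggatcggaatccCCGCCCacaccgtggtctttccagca
The upstream window holds 4 GC boxes and the downstream one 2, and 56.3% of 22156 protein-coding promoters hold at least 1. Nt.CviPII is known to nick at CC followed by A, G or T. Its sites, CCA, CCG and CCT on either strand, number 49 and 64 in these windows, against a median of 42.0 in all promoters.

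**Figure D3:**
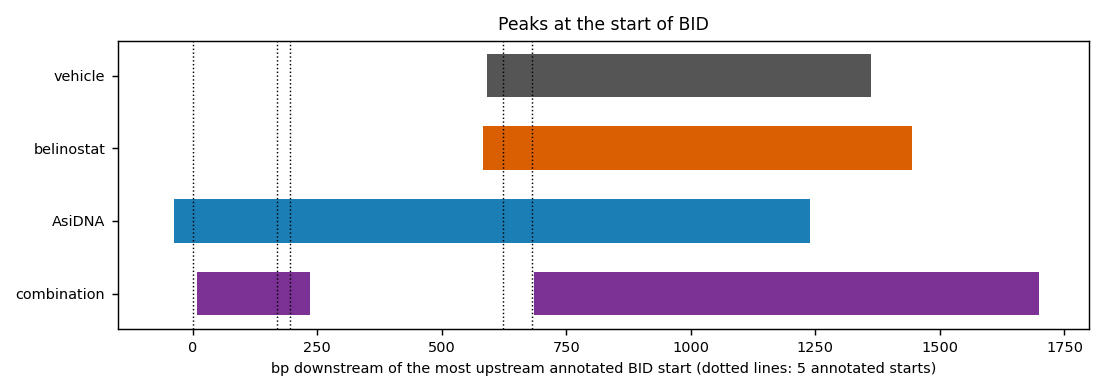
Peaks of each list at the start of BID, by distance in bp downstream of the most upstream RefSeq start, with dotted lines at the 5 annotated starts. The AsiDNA peak (1277 bp) spans all 5 starts, and the vehicle (771 bp) and belinostat (862 bp) peaks reach only the 2 downstream starts. The small combination peak (227 bp) holds 2 of the 3 upstream starts and stops just short of the first. The larger combination peak (1014 bp) ends just short of the 2 downstream starts.

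Elsewhere at BID, chr22:17772390-17772796, 2.07 kb from the start, stood at 23.5, 59.5, 35.8 and 47.7. Upstream, chr22:17781312-17782263 stood at 68.5, 86.1, 64.5 and 82.5. Both ranked higher with belinostat than without on either background. The region at the gene's end, chr22:17733644-17734658, ranked highest in vehicle, at 59.2 against 24.1, 32.8 and 25.1, and was lower in both belinostat lists. At 32.0 kb, chr22:17742574-17742831 was held by vehicle (26.8) and AsiDNA (5.81) alone, and by vehicle only at a −log10 q of at least 5. Midway, chr22:17753347-17753995 was in every list (68.8, 59.3, 55.6 and 72.8), and single-list regions were found with belinostat (chr22:17752417-17752652, 29.6) and with the combination (chr22:17760030-17760475, 14.1).

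BAD, which binds BCL2 and BCL-xL when survival signalling stops, lies in a gene-dense stretch. GPR137 overlaps it, with RefSeq starts near both ends of BAD, so neither end region can be assigned to BAD alone. The start region, chr11:64284467-64286040, was 1429 to 1557 bp wide and stood at 78.3, 91.3, 82.7 and 86.4. The end region, chr11:64269610-64270933, stood at 59.1 in vehicle, 84.3 with belinostat, 62.9 with AsiDNA and 80.3 with the combination, at least 17.4 points higher in both belinostat lists. Past the start, chr11:64290718-64291222 (1.49 and 0.132) and chr11:64294545-64295025 in KCNK4 (10.6 and 27.4) were held by belinostat and the combination alone, and the first was in no list at a −log10 q of at least 5. On the other side, chr11:64263116-64263352 in PLCB3 was held by AsiDNA (11.2) and the combination (16.4) alone. These 3 regions had low ranks and lie outside BAD. Another region in PLCB3 was weak in every list (2.44 to 10.2) and ranked lower in both belinostat lists. A weak region inside BAD, chr11:64271177-64271662, was also lower in both, at 0.542, 0.127, 7.81 and 0.330.

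PMAIP1, whose product NOXA neutralises MCL1 and which is a known target of p53, had 2 of 8 regions in every list. Of all regions in the series 51.4% were in every list, and 5 of the 8 PMAIP1 regions lay outside the gene. Its start region, chr18:59899424-59901071, was narrower in both belinostat lists: 1194 bp in vehicle, 748 with belinostat, 1628 with AsiDNA and 796 with the combination. The ratios were 0.626 over vehicle and 0.489 over AsiDNA. Rank went the other way, at 49.4, 73.8, 68.0 and 78.2. The promoter window itself was fully covered by peaks of every list, so the lists differ at the edges of the region. It is shown beside that of BMF, which has the narrowest start region, with GC boxes in capitals. PMAIP1 was chosen for printing after its values were seen.
PMAIP1, start 59899996, chr18:59899746-59900045, plus strand: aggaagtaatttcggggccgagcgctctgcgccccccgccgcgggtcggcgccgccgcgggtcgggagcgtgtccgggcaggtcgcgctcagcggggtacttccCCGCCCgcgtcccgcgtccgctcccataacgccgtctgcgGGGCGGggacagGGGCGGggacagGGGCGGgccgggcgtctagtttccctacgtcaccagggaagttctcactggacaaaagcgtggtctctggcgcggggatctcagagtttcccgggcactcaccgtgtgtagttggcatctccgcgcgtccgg
BMF, start 40108879, chr15:40108830-40109129, minus strand: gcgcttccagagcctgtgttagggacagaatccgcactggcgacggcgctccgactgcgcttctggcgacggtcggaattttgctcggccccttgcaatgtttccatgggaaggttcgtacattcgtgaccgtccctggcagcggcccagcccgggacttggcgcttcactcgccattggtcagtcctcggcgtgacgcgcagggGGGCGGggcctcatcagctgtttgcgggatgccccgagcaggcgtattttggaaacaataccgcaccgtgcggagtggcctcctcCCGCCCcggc
The PMAIP1 window holds 4 GC boxes and the BMF window 2, and each holds 43 nicking sites. Inside PMAIP1, chr18:59902144-59902620 was held by vehicle (11.5) and AsiDNA (26.0) alone. The region past the end, chr18:59904692-59905283, stood at 63.3, 76.2, 61.1 and 73.4, higher in both belinostat lists. Further out, within 10 kb of the end, lay chr18:59908813-59909436, missing from belinostat (12.6, 19.7 and 6.24 in vehicle, AsiDNA and combination), chr18:59910378-59910610 in vehicle alone (28.1), chr18:59911160-59911420 in AsiDNA (12.1) and combination (19.5), and chr18:59911698-59911965 in belinostat (37.1) and combination (8.45). On the other side of the gene, 1 region was held by AsiDNA alone (32.8).

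BMF, a BH3-only protein tied to the cytoskeleton, had 6 of 8 regions in every list. Its start region, chr15:40108677-40109324, covered 630, 642, 621 and 590 bp in vehicle, belinostat, AsiDNA and combination, at percentiles 67.9, 75.4, 70.8 and 83.4. Near the gene's end, chr15:40088710-40089563 was held by belinostat (854 bp, percentile 32.5) and the combination (567 bp, 8.69) and by neither other list. Requiring a −log10 q of 5 left it in the belinostat list alone. In the middle of the gene, chr15:40098628-40099298 was constant at 76.2, 73.0, 81.8 and 76.0, lower in both belinostat lists by a gap of 0.154 points. Beside it, chr15:40098059-40098256 was held by the combination alone (19.9). Beyond the end, chr15:40081461-40082159 ranked highest in vehicle, at 56.7 against 14.0, 31.1 and 23.7, and was lower in both belinostat lists. Of the rest, chr15:40104735-40105217 stood at 35.9, 29.1, 47.1 and 30.2, lower in both belinostat lists, chr15:40103368-40103936 was weak throughout (3.75 to 9.43), and chr15:40118529-40118954 upstream stood at 69.2, 62.7, 52.5 and 69.3.

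BIK, a BH3-only protein of the endoplasmic reticulum, had the fewest regions. At its lower-coordinate end, chr22:43110487-43110944 was held by belinostat (361 bp, percentile 18.6) and AsiDNA (458 bp, 31.8), and by AsiDNA only at a −log10 q of at least 5. Inside the gene, chr22:43124947-43125320 was held by vehicle (5.37) and AsiDNA (30.6) alone, by AsiDNA only at a −log10 q of at least 5, and chr22:43126785-43127218 by belinostat (44.8) and the combination (60.5) alone. The last pair of regions thus followed belinostat on both backgrounds in opposite directions.

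Of the 47 constant regions, 16 (34.0%, interval 22.2 to 48.3) differed in covered width by at least 1.5-fold in 1 or more of the 5 comparisons, against 31.8% of all constant regions. The counts that follow are over the regions shared by each pair of lists. Over vehicle, belinostat peaks covered at least 1.5 times the bases at 2 of 48 shared regions (background 10.2%). They were narrower by that ratio at 2 (background 7.24%), together 4 (8.33%, interval 3.29 to 19.6, background 17.5%). The combination over AsiDNA was wider at 5 of 53 (background 6.09%) and narrower at 8 (15.1%, interval 7.85 to 27.1, background 9.45%), together 13 (24.5%, interval 14.9 to 37.6, background 15.5%). AsiDNA over vehicle was wider at 6 of 55 (background 7.97%), among them the start regions of BCL2L11 and BID, and narrower at 2 (background 3.86%). The combination over belinostat was wider at 1 of 55 (background 4.05%) and narrower at 2 (background 6.02%), and over vehicle it was wider at 7 of 51 (background 8.41%) and narrower at 4 (background 7.64%). In both belinostat comparisons at once, only PMAIP1's start region was narrower (background 2.27%) and only 1 weak region inside BAD was wider (chr11:64271177-64271662, background 1.98%).

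**Figure D4:**
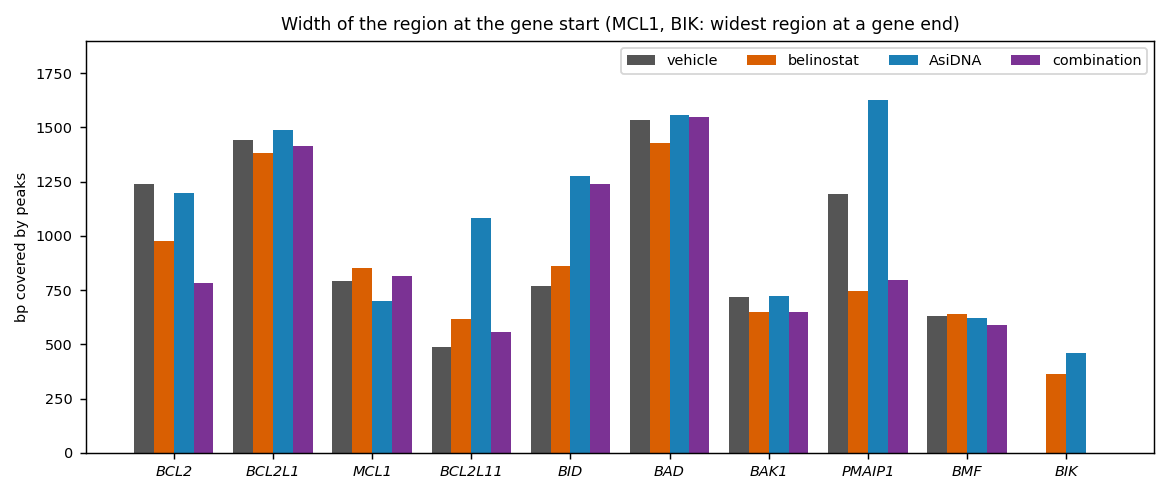
Bases covered by peaks of each list in the region at the gene start, or for MCL1 and BIK in the widest region at a gene end. There is 1 value per list and so no error bar. PMAIP1 was 748 and 796 bp wide with belinostat against 1194 and 1628 bp without it, and BIK has no peak in vehicle or combination.

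Of the 47 constant regions, 30 had a higher percentile in belinostat than in vehicle (63.8%, interval 49.5 to 76.0), against 56.8% of all 94332 constant regions. In the combination, 29 had a higher one than in AsiDNA (61.7%, interval 47.4 to 74.2), against 52.0%. The median differences were 7.47 points, against 2.12 over all constant regions, and 5.62 against 0.573. Both backgrounds lie inside the counting intervals of the family's shares. Above both lists without belinostat in both lists with it stood 20 regions (42.6%, interval 29.5 to 56.7, background 35.1%), and 10 stood below (21.3%, interval 12.0 to 34.9, background 26.9%). A gap of 20 points or more, a limit chosen after the data were seen, was met upward by the 1 BCL2L1 and 2 BCL2L11 regions inside the genes (6.38%, interval 2.19 to 17.2, background 5.00%) and downward by none (background 4.55%). As a group the family thus had about the genome's share of such regions. By AsiDNA, 3 of 47 stood higher in both lists (background 10.3%) and 2 lower (background 9.10%), none by 20 points (backgrounds 0.134% and 0.130%). By the split that follows neither drug, 7 stood higher in both single-drug lists (14.9%, background 11.1%) and 5 lower (10.6%, background 7.51%), none by 20 points (backgrounds 0.165% and 0.0530%).

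**Figure D5:**
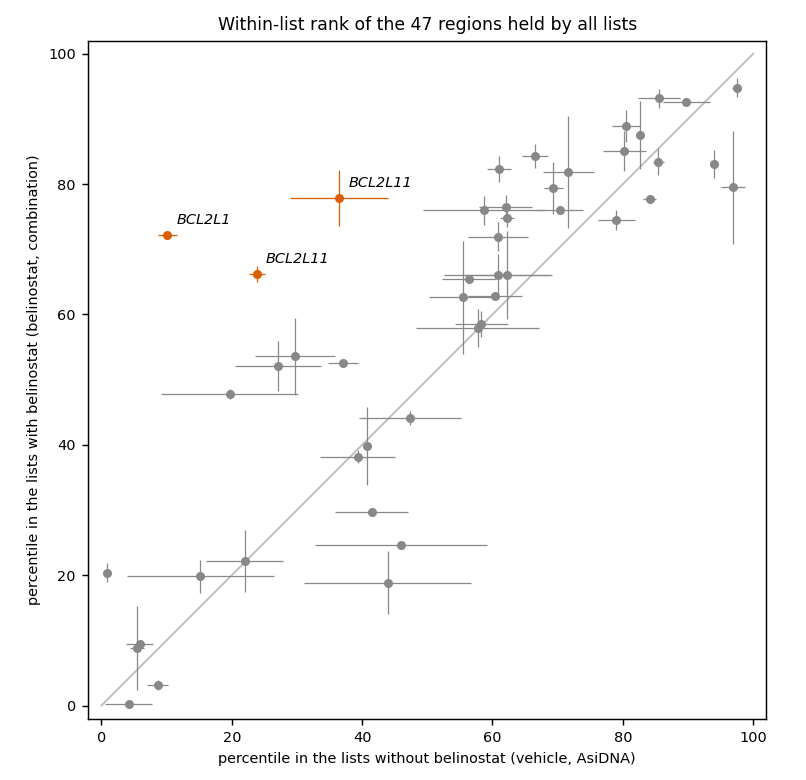
Percentile of each of the 47 regions held by all lists, as the mean of the lists without belinostat (x) and with belinostat (y), with bars spanning the 2 lists. The line marks equal rank. The named regions of BCL2L1 and BCL2L11 lie above it by gaps of 60.1, 39.8 and 29.5 points between the nearest lists.

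Of 22 other genes of the mitochondrial pathway, 18 had a gene-end peak in every list, against 64.1% of 19974 protein-coding genes. The 18 included the pore former BAX, the p53 target BBC3 (PUMA), the apoptosome genes APAF1, CYCS and CASP9, and the caspase inhibitor XIAP. BCL2L14 and BCL2L15 had none. HRK, a neuronal BH3-only gene, had a start peak in AsiDNA (percentile 14.8, −log10 q 4.53, under the stricter limit of 5) and combination (16.4) alone. BCL2L10, whose strand was not at hand, had a peak at its upper-coordinate end in the combination alone (30.5). A gene-end peak in some but not all lists was found at 8.47% of protein-coding genes. Of 108 regions within 10 kb of these genes, 68 (63.0%) were in every list, 3 (2.78%) were present with belinostat only and 3 absent with it only. Over all regions these shares were 51.4%, 6.09% and 5.04% in the same order, and for the 10 family genes 61.8%, 7.89% and 6.58%. These differences were not tested.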

How the data were processed

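The 4 deposited peak lists of hg38 were used, 1 per group, as the labels name the same list for the 4 libraries of a group. The submitters' processing notes name MACS2, Bowtie2, Trim Galore 0.5.0, deepTools, Picard and SAMtools. Each tool's role, and the pooling of libraries, is not given in the sources used here, and depth is unknown. The authors' fold enrichment, a ratio to the local background, and their deposited −log10 q-value are not scaled between lists. Fold was therefore used as a percentile within a list. The raw folds printed for a BCL2L1 region are not comparable between lists. The lowest deposited −log10 q was 1.30. A longer list can reflect more reads.

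Regions, gene-end calls (1000 bp) and promoter windows were computed with Python 3.11.15, numpy 2.4.6 and pandas 2.3.3. The merging of regions, the counts by list and the gene-end calls were checked on 5000 simulated regions. Promoter windows, widths and ranks were not part of that check. A region was gained or lost when only 1 list of a pair held a peak in it. Positions are 1-based, gene spans and promoters are RefSeq GRCh38.p14, and 8 of 10 members matched a promoter. Exons and introns were not assigned. Intervals are Wilson 95% intervals and cover counting error only. All regions at the 10 genes are counted, and those named are the regions at gene ends, the highest-ranked constant and variable ones and all that followed belinostat, with others added after their values were seen. The members and lists were chosen with earlier results of these data known. Alternatives were other thresholds, list lengths, overlaps, spans and windows.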

Additional observations from a re-analysis of the deposited data

Results flagged for a closer look

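At BIK, the region at the lower-coordinate gene end (chr22:43110487-43110944) had a peak with belinostat but not with vehicle, and with AsiDNA but not with the combination. Belinostat thus went with presence in one background and with absence in the other. The percentiles were 18.6 in the belinostat list and 31.8 in the AsiDNA list. With 1 list per group the difference was not tested, and 1.39% of all regions were held by these lists alone. At a −log10 q of at least 5 only the AsiDNA list held a peak there.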

How the results depend on the processing

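A window of 500 bp left 12 of 14 gene ends with a peak in all lists, without the start of BID and the end of BAK1. No paired analysis was possible because each group has 1 peak list for its 4 libraries, and no library could be left out for that reason. Of 77 values obtained under other settings for shares that differ or are shared, gene-end presence, width and rank, 69 stayed within the counting interval of the main share or within 1.5 times the main count. The remaining 8 came from settings that keep or call fewer or more regions by construction. Counts in 1 direction, such as gained or lost regions, were tallied apart. Of these, 81 stayed within 1.5 times the main count and 32 did not, among them counts with other gene-span extensions. With only regions at percentile 50 or more in a list, 90.0% of the family's regions were held by all lists. No share over all regions was counted with that filter. This value and those in the next sentence therefore have no background, and the main backgrounds do not apply to them. The shares held by 1 list of a pair were then 10.0% for belinostat and vehicle, 5.00% for combination and AsiDNA, 2.56% for AsiDNA and vehicle, 2.56% for combination and belinostat and 7.50% for combination and vehicle, and 5.00% followed belinostat on both backgrounds. A gap of 10 points in rank, added after the data were seen, was met upward by 23.4% of the family's 47 constant regions. No share over all constant regions was counted for that limit. Over all settings, gained regions ran from 2 to 17 for belinostat over vehicle (11 as reported), 1 to 12 when AsiDNA is set against vehicle (8), 1 to 14 when the combination is set against AsiDNA (9), 1 to 12 for combination over belinostat (7) and 2 to 19 for combination over vehicle (11). Lost regions ran from 2 to 11 (9), 0 to 4 (2), 1 to 13 (10), 0 to 7 (4) and 1 to 8 (6) in that order. Regions present with belinostat only ran from 1 to 7 (6) and absent with it from 1 to 6 (5). With a −log10 q of at least 5, the regions of that kind at BID (17742574 to 17742831), BMF (40088710 to 40089563) and BIK (43124947 to 43125320) each kept a peak in 1 list, and the BAD region at 64290718 had none. With lists cut to 130318 peaks the BCL2L1 gap was 62.0 points and the BCL2L11 gaps were 41.2 and 28.6.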
